A study of Mus musculus with 12 samples.

Results

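The NLRP3 inflammasome is a protein complex of macrophages that turns danger signals into the release of interleukin 18 and interleukin 1 beta. The sensor NLRP3 recruits the adaptor ASC, encoded by Pycard, which activates caspase-1. Caspase-1, or caspase-11 encoded by Casp4 in the mouse, cleaves gasdermin D, whose pores release the cytokines and can end in pyroptosis. Lipopolysaccharide (LPS), a bacterial cell wall product, is the classical priming signal of this pathway, under which transcription of Nlrp3 increases through NF-kB.

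The chromatin of 6 inflammasome genes (Nlrp3, Pycard, Casp1, Casp4, Gsdmd and Il18) was described in 12 ATAC-seq libraries, an assay that marks open chromatin by transposase insertion. The members were open regions: peaks of the 12 lists that overlapped or touched were merged, regions in at least 2 lists were kept, and those within 50 kb of the mm10 span of a gene were taken. This gave 69 regions of 76042 in all. The libraries came from RAW264.7, a mouse macrophage cell line, made stable for expression of Nur77 or of GFP under doxycycline. Nur77 (Nr4a1) is an orphan nuclear receptor. Every group, the controls included, carried doxycycline at 1 ug/ml for 18 h. The 4 groups of 3 libraries were the Nur77 line with 500 ng/ml LPS for 1 h, the untreated Nur77 line, the GFP line with the same LPS, and the untreated GFP line, so that the Nur77 line is set against a line with another induced protein and not against uninduced cells. Each protein was carried by a line of its own. An effect of Nur77 therefore cannot be told apart from any other difference between the lines. The labels do not say whether the 3 libraries of a group came from separate cultures or clones, and the p-values measure the spread between these libraries, which may be technical.

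The lists held 36184 to 81467 peaks, with the shortest from the untreated Nur77 line (replicate 2) and the longest from the GFP line with LPS (replicate 3). Lists of the Nur77 line held 52514 ± 7541 peaks with LPS and 49095 ± 11182 untreated, against 62210 ± 17224 with LPS and 61530 ± 6075 untreated in the GFP line (SD, n = 3 each). Read totals were not part of the lists, so depth is unknown. Of 7 macrophage marker genes, 7 had a region at a gene end called in all 12 libraries, against 1 of 4 T cell, 1 of 4 B cell, 1 of 4 fibroblast, 0 of 4 epithelial and 0 of 3 neuronal genes. At Nr4a1 itself, 1 region (chr15:101270092-101272260, mm10) was called in 6 of 6 libraries of the Nur77 line and in 0 of 6 of the GFP line, as were 0.0579% of all regions. No other region over the gene split in full between the lines. Whether the reads of this region came from the introduced Nur77 sequence or from the gene itself was not tested.

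Of the 69 regions, 16 lay near Nlrp3, 19 near Pycard, 18 near Gsdmd and 12 near Il18, while the neighbours Casp1 and Casp4 shared 4. A gene span was overlapped by 14 regions, and 47 lay nearer to another protein-coding gene. All 12 libraries called 29 of them (42.0%), against 34.7% of all 76042 regions, and 12 were called in exactly 2 libraries. Calls are yes or no per library. Strength is given as a percentile of the −log10 q, in which 100 is the strongest, either within a library's own list or among the 26378 regions called in all 12 libraries. The second scale ranks the same regions everywhere and was tested with limma on normal scores, so its differences are in SD units of the ranking. Where percentiles of groups are said below to be apart or not to overlap, this is description only. The share of all regions that split this way in percentile was not counted.

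**Figure D1:**
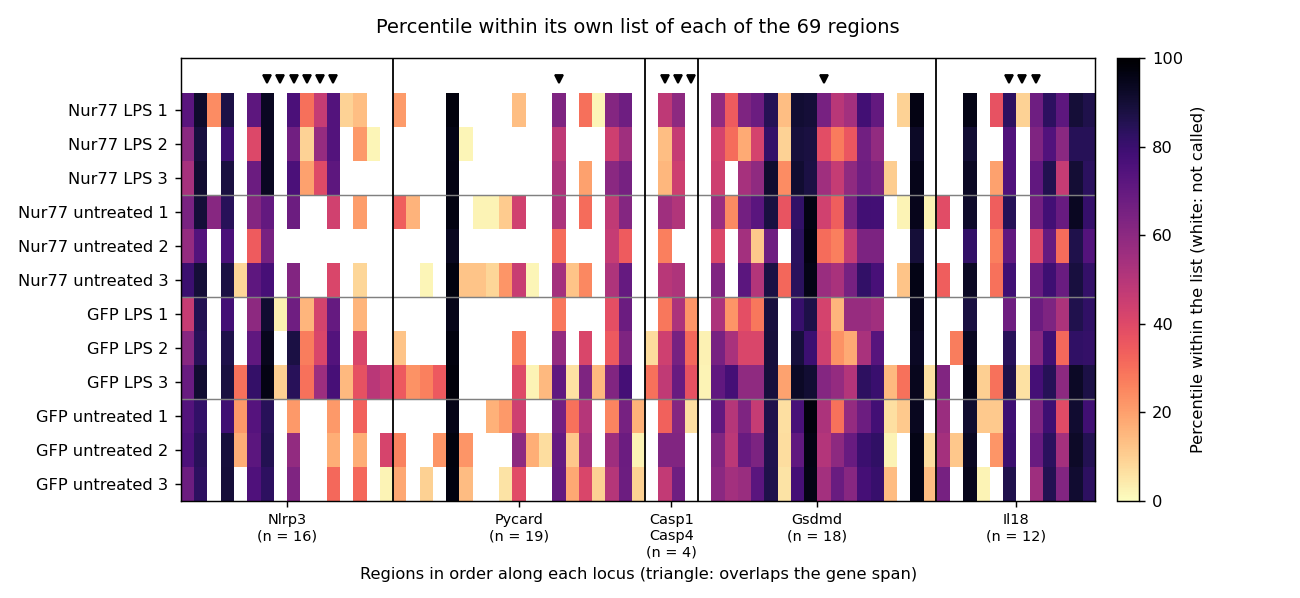
Percentile within its own list (colour, 0 to 100) of each of the 69 regions (columns, in order along each locus) in each of the 12 libraries (rows), with regions not called in white and triangles over the 14 that overlap a gene span. The block of coloured cells at the 3′ part of Nlrp3 in the LPS rows, white in the untreated rows, holds the 2 regions called in 6 of 6 LPS and 0 of 6 untreated libraries.

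Nlrp3, the sensor, differed with LPS in both lines. Chromatin at its promoter rose in rank, a pair of regions in the gene body was called in every LPS library and in no untreated one, and a region that begins at its 3′ end and lies almost wholly downstream rose in rank. RefSeq places 2 transcription starts in the gene, 1117 bp apart, under the same promoter region. The 300 bases around each (250 before the start and 50 from it onward) are shown because the higher summit of the peaks lay at one or the other. They are RefSeq sequences of GRCm38.p6 (the build mm10), plus strand, at chr11:59541319-59541618 and chr11:59542436-59542735, 5′ to 3′, with capitals on a match to the NF-kB motif.
Nlrp3 upstream start: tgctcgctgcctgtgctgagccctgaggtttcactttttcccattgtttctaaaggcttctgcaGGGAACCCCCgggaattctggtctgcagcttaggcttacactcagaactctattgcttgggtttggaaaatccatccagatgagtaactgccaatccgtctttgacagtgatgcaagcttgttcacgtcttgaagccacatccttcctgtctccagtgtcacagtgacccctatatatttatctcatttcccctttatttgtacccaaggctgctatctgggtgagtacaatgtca
Nlrp3 downstream start: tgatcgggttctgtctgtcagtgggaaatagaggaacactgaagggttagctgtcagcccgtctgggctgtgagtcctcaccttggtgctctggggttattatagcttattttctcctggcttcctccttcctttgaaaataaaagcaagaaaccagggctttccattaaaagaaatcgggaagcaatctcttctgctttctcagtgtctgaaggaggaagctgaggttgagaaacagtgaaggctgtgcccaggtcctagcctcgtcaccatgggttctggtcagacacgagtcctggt
The upstream window held 1 NF-kB match, on both strands, at bases -186 to -177 from the start. The downstream window held none of the 6 motifs searched. On either strand, NF-kB was matched in 8.46% of 32851 RefSeq promoters of this length, AP-1 (TGANTCA) in 7.81%, the Nur77 element NBRE (AAAGGTCA) in 1.51%, C/EBP (TTGCNNAA) in 10.8%, ISRE (GAAANNGAA) in 8.56% and PU.1 (AGAGGAAGT) in 1.00%. A match describes letters in this window and says nothing of binding.

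The Nlrp3 promoter region (chr11:59540041-59545086) was called in 12 of 12 libraries. In the Nur77 line its percentile among the shared regions was 85.1, 89.2 and 87.2 with LPS, against 39.5, 53.9 and 52.8 untreated. In the GFP line it was 83.6, 87.9 and 88.5 with LPS, against 67.9, 64.2 and 59.1 untreated. The LPS and untreated libraries did not overlap in either line, and the 6 LPS libraries of both lines lay within a few percentiles of each other. Averaged over the lines, the normal score was 0.97 ± 0.09 (SE) higher with LPS (limma, adjusted p = 1.19e-05), with 1.17 ± 0.13 in the Nur77 line (adjusted p = 0.000147) and 0.76 ± 0.13 in the GFP line (adjusted p = 0.00187). The difference between these responses was 0.41 ± 0.18 and did not pass (adjusted p = 0.672). In untreated cells the Nur77 line was at 48.7 ± 8.0 and the GFP line at 63.7 ± 4.41 (SD, n = 3 each), a score difference of -0.39 ± 0.13 that did not pass (adjusted p = 0.102), and with LPS the lines were at 87.2 ± 2.05 and 86.7 ± 2.68, a difference of 0.02 ± 0.13 (adjusted p = 0.951). Over all 26378 shared regions, 13.4% were higher and 13% were lower with LPS.

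Within the promoter region each library had a summit near each start. The deposited fold enrichment at the upstream start was 85.0, 90.7 and 74.5 in the Nur77 line with LPS, 23.9, 20 and 32.4 in the untreated Nur77 line, 38.3, 63.9 and 92.2 in the GFP line with LPS, and 17.7, 24.4 and 26.6 in the untreated GFP line. At the downstream start it was 34.7, 31.2 and 22.3 in the Nur77 line with LPS, 24.5, 16.4 and 35.5 in the untreated Nur77 line, 15.6, 23.3 and 42.0 in the GFP line with LPS, and 39.1, 41.2 and 38.3 in the untreated GFP line. Upstream summits of LPS libraries were all above those of untreated libraries, while downstream summits overlapped. Deposited folds are not on one scale between libraries, since depth is unknown. Within the GFP line with LPS alone the upstream fold ran from 38.3 to 92.2, so this order is description only. The ratio of upstream to downstream fold, which is taken within a library, was 2.68 ± 0.41 with LPS and 0.81 ± 0.28 untreated (SD, n = 6 each). It ran from 2.19 to 3.33 with LPS and from 0.45 to 1.22 untreated, so the higher summit was the upstream one in 6 of 6 LPS libraries and in 1 of 6 untreated ones (Nur77 line, replicate 2). Within the untreated groups, the Nur77 line had ratios of 0.98, 1.22 and 0.91 and the GFP line 0.45, 0.59 and 0.70. The share of start pairs that differ this way between lines was not counted, so no line difference is read from them. The ratio was chosen after its values were seen and is not tested here. Among 29 pairs of starts of 27 genes measured the same way, 2 (6.9%) had ratios that were higher with LPS without overlap and 2 (6.9%) lower. So few pairs cannot show how rare the change at Nlrp3 is.

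**Figure D2:**
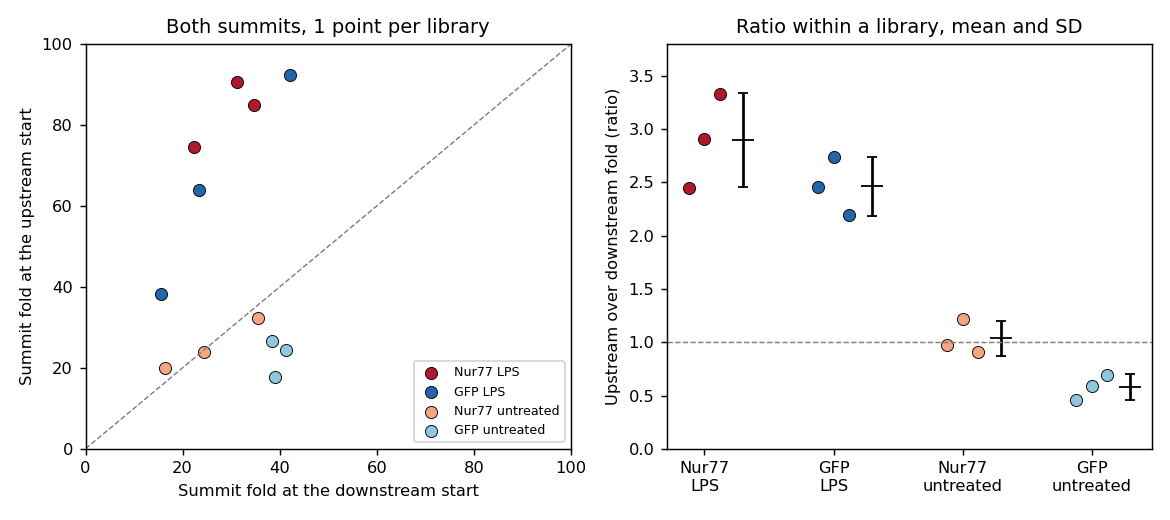
Left, deposited summit fold enrichment at the upstream start (vertical) against that at the downstream start (horizontal) of Nlrp3, 1 point per library, with a dashed line of equal folds. Right, the ratio of both folds per library with group mean and SD (n = 3 each). LPS libraries of both lines lie at 2.19 to 3.33, above the untreated libraries at 0.45 to 1.22.

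In the Nlrp3 gene body, 2 regions were called in 6 of 6 LPS libraries and 0 of 6 untreated ones, and so were gained (3 of 3 against 0 of 3) in the Nur77 line and in the GFP line. They were the only regions of the 69 gained in either line, which is 2.90%, where 1.94% of all regions were gained in the Nur77 line and 1.96% in the GFP line. The first (chr11:59558227-59561432) was weak, at percentiles of 29.7, 9.04 and 19.9 of the lists of the Nur77 line with LPS and 15.5, 27.3 and 29.5 of those of the GFP line with LPS. The second (chr11:59561863-59566572) was near the middle of the lists, at 46.1, 57.5 and 39.5 in the Nur77 line and 42.4, 41.1 and 55.9 in the GFP line. The lines overlapped at both. Such a full split between treatments was seen at 0.568% of all regions. Fisher's exact test (two-sided, 6 against 6) gave p = 0.00216 for each, the smallest this design allows, and an adjusted p of 0.0935 over the 20292 regions called in 4 to 8 libraries, of which 14 were near the 6 genes. No region of the 20292 passed 0.05 after adjustment, while 5.56% were more often and 1.48% less often called with LPS at an unadjusted p under 0.05 (2 and 0 of the 14). With every list trimmed to its 36184 strongest peaks, the second region passed (adjusted p = 0.0342) and 1 region was gained in the Nur77 line. With peaks required to cover 50% of the region, 1 was gained in the GFP line.

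Further regions flanked these. The region downstream of the 3′ end (chr11:59566916-59574606), which also overlaps the olfactory receptor gene Olfr222, was called in 11 of 12 libraries. The gene ends 25.386 kb from the upstream start, and only the peak of Nur77 LPS replicate 2, from 25.347 kb, reached it. The peaks of the other LPS libraries began at 25.45 kb or beyond and those of the untreated libraries at 27.565 kb or beyond, so the ranked signal lay past the gene. It stood at percentiles of 74.2, 73.9 and 71.8 in lists of the Nur77 line with LPS, against 43.4 and 41.2 in those of the untreated Nur77 line, where replicate 2 did not call it. In the GFP line it stood at 69.8, 73.9 and 77.0 with LPS, against 21.3, 17.0 and 31.3 untreated. Treated and untreated libraries did not overlap. In a ranking of the 35864 regions called in at least 10 libraries, with the library lacking a call dropped for this region, its score was 1.56 ± 0.12 (SE) higher with LPS (limma, adjusted p = 1.5e-05), where 12.2% of regions were higher and 10.5% lower. Without untreated Nur77 replicate 2 in any ranking it was 1.70 ± 0.12 higher (adjusted p = 6.49e-06). It was also higher in the untreated Nur77 line than in the untreated GFP line, by 0.88 ± 0.18 (adjusted p = 0.0168), where 1.54% of regions were higher and 4.5% lower. With LPS the line difference was 0.15 ± 0.16 (adjusted p = 0.654), where 2.06% were higher and 3.89% lower. Its LPS response was 1.19 ± 0.18 in the Nur77 line (adjusted p = 0.00234), where 6.87% of regions were higher and 3.02% lower. In the GFP line it was 1.93 ± 0.16 (adjusted p = 0.000103), where 7.65% were higher and 6.34% lower. The responses differed by -0.73 ± 0.24, which did not pass (adjusted p = 0.591). Both rankings left out untreated Nur77 replicate 2 here, so the untreated Nur77 group rests only on the libraries that called the region. This may place that group too high and make the response of the Nur77 line too small. Neither ranking can therefore check the untreated line difference.

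A region further upstream in the gene body (chr11:59551320-59556417), called in the same 11 libraries, was at a list percentile of 76.2 ± 8.67 with LPS (SD, n = 6) and 54.5 ± 18.8 untreated (n = 5). In the ranking over 10 or more libraries it was 0.83 ± 0.23 higher with LPS (limma, adjusted p = 0.024), with 0.37 ± 0.34 in the Nur77 line (adjusted p = 0.604) and 1.29 ± 0.30 in the GFP line (adjusted p = 0.0184). The responses differed by -0.92 ± 0.46 (adjusted p = 0.7). Here too the untreated Nur77 group lacks the library without a call, which may make the response of the Nur77 line too small. The weakest value, 21.3, belonged to untreated GFP replicate 1.

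Counted over the whole span of Nlrp3, peaks covered 13359, 12069 and 7923 bases in the Nur77 line with LPS, against 3393, 2798 and 3650 in the untreated Nur77 line. In the GFP line they covered 9749, 11843 and 14201 bases with LPS, against 3224, 3676 and 3534 untreated. The libraries had 7 or 8 separate peaks in the span with LPS and 1 or 2 untreated. The mean was 11524 ± 2326 bases with LPS and 3379 ± 331 untreated (SD, n = 6 each), a ratio of 3.41, or 3.35 per megabase covered by all peaks of the library. Covered bases move with how much was called in a library, and with lists trimmed to the shortest the ratio per megabase was 2.69. This measure was also chosen after values were seen. Of 15580 genes, 0.841% were higher and 0.347% lower with LPS without overlap, as bases and per covered megabase. Ratios were compared only among 12707 genes with a minimum mean of covered bases in the untreated libraries. Of these, 0.252% had a larger ratio than Nlrp3, while genes with little covered before LPS were left out.

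**Figure D3:**
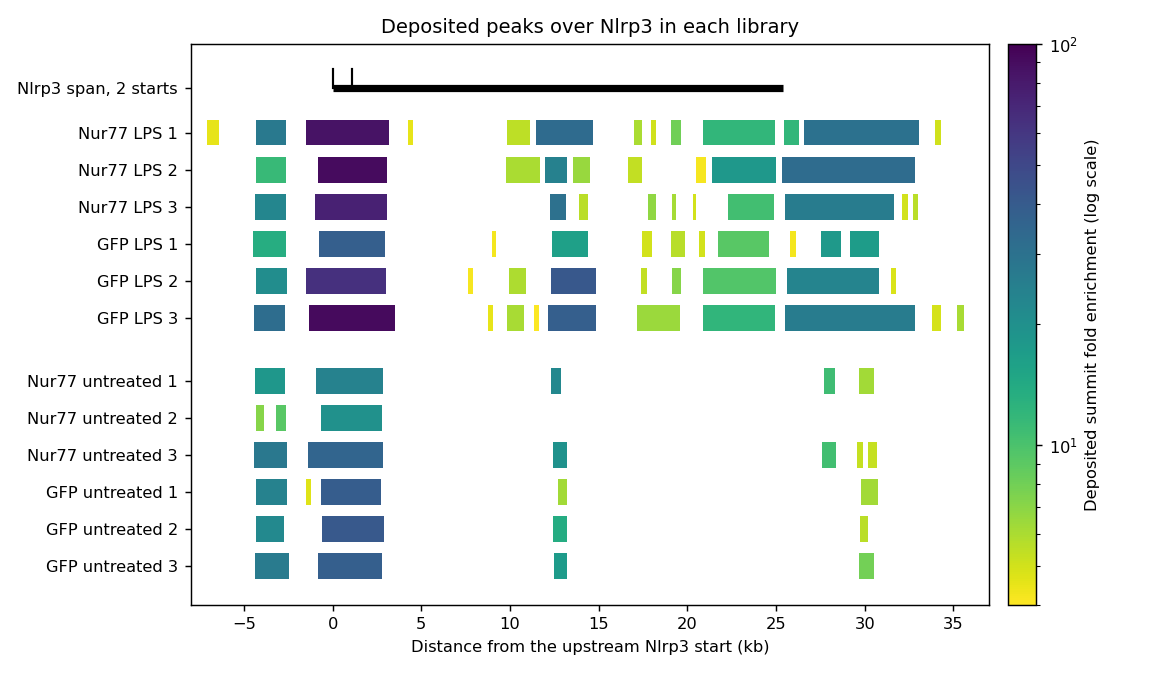
Deposited peaks (bars) in each library over Nlrp3, by distance in kb from the upstream start, coloured by deposited summit fold enrichment on a log scale that ends at 100, with the gene span and both starts on top. The LPS libraries have 7 or 8 peaks in the span and the untreated libraries 1 or 2.

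**Figure D4:**
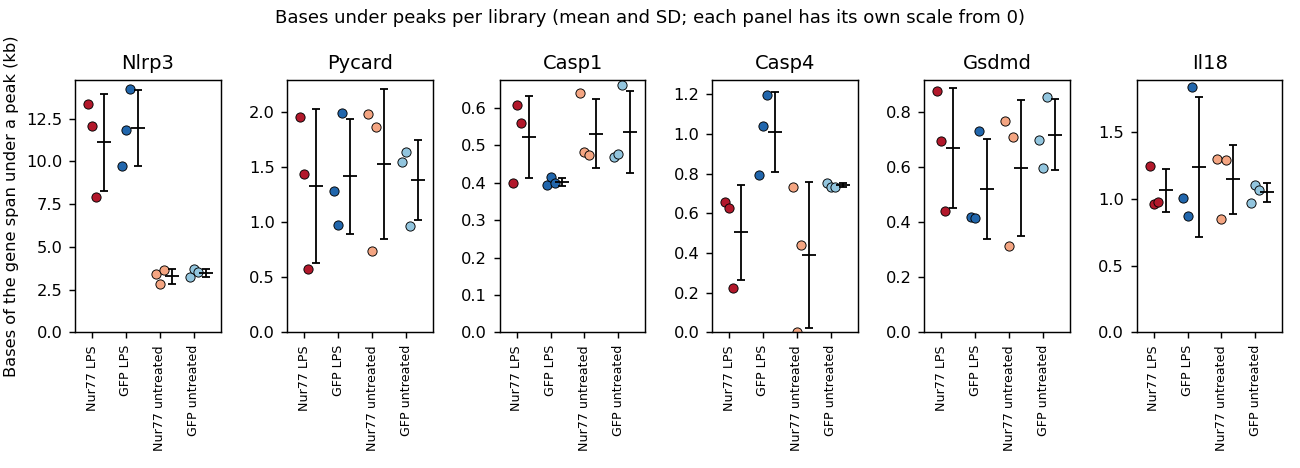
Bases of each gene span under a peak, in kb, per library (points) with group mean and SD (n = 3 each), with a scale from 0 of its own in each panel. LPS and untreated libraries are apart at Nlrp3, at 7923 to 14201 bases against 2798 to 3676 bases, and overlap at the other 5 genes.

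Elsewhere near Nlrp3, the strongest region by mean list percentile (86.1 ± 5.13, SD, n = 12) lay 34.1 kb away within Zkscan17 (chr11:59505018-59507455). Its percentile among the shared regions was 81.4 ± 0.814 with LPS and 74.1 ± 7.57 untreated in the Nur77 line, against 70.7 ± 3.82 with LPS and 61.1 ± 2.45 untreated in the GFP line (SD, n = 3 each). It was 0.36 ± 0.09 higher in the Nur77 line (limma, adjusted p = 0.0157), and 0.25 ± 0.09 higher with LPS, which did not pass (adjusted p = 0.0557). The line difference held without any one library (adjusted p up to 0.0407) but not in the ranking over 10 or more libraries (adjusted p = 0.0582).

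Between the lines, 4 of the 29 regions shared by all libraries ranked higher in the Nur77 line (6.62% of all shared regions did) and 0 ranked lower (9.45%). At an unadjusted p under 0.05 there were 5 of 29, against 29.5% of all shared regions. The median difference of the 29 was 0.13, against 0.03 over all 26378. In untreated cells 1 was higher (2.49% of all) and 0 lower (4.19%). With LPS 0 were higher (2.49%) and 0 lower (4.73%), with 5 of 29 at an unadjusted p under 0.05, against 22.3% of all shared regions. For the difference of the LPS response between lines limma called 0 of 29 and 0 of 26378, where an unadjusted p under 0.05 was reached by 3 and by 1944 regions (7.37%).

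Pycard encodes the adaptor ASC, which RAW264.7 cells are known to lack. The region over the gene (chr7:127990478-127993922) was called in 12 of 12 libraries. Its summit lay 1842 to 1898 bp downstream of the annotated start in every library, which is in the 3′ part of a span of 2495 bp, and 0 libraries had it in the window around the start. Its percentile among the shared regions was 24.9, 22.0 and 19.2 in the Nur77 line with LPS, against 14.8, 16.6 and 15.2 in the untreated Nur77 line. It was 7.94, 23.8 and 22.5 in the GFP line with LPS, against 33.7, 30.3 and 31.6 in the untreated GFP line. On this scale the groups did not overlap in either line, with LPS higher in the Nur77 line and lower in the GFP line, while percentiles within the own list overlapped in both lines, and neither response passed (0.24 ± 0.16, adjusted p = 0.399, and -0.49 ± 0.16, adjusted p = 0.0579), nor did their difference of 0.73 ± 0.23 (limma, adjusted p = 0.526). The share of shared regions with such opposite splits was not counted.

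Around Pycard, 16 of 19 regions were nearer to another gene, and 4 of 19 (21.1%) were called in all libraries, the lowest share of the 6 genes. A region 24.5 kb away and nearest to Trim72 (chr7:128018370-128019805) was higher in the Nur77 line, at percentiles of 22.8, 18.7 and 29.2 with LPS and 10.6, 31.5 and 13.1 untreated, against 14.2, 6.01 and 11.6 with LPS and 2.09, 12.1 and 8.17 untreated in the GFP line. The lines overlapped, and the difference of 0.56 ± 0.17 was near the threshold (limma, adjusted p = 0.0393). The call was lost without any one of Nur77 LPS replicates 1, 2 and 3, untreated Nur77 replicate 2, GFP LPS replicates 1, 2 and 3, or untreated GFP replicates 1 and 3 (adjusted p up to 0.0935). A weak region 48.6 kb away (chr7:128042441-128042991) was called in 3 of 3 untreated GFP libraries, at list percentiles of 16.3, 2.26 and 9.53, and in 0 of the other 9. It was the only lost region with LPS in the GFP line (1 of 69, where 1.02% of all regions were lost), and 0 were lost in the Nur77 line (0.46%).

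Casp1 and Casp4, the inflammatory caspases, lie next to each other, and their 4 regions are few. The region at the Casp1 start (chr9:5298109-5299178) was called in 12 of 12 libraries but ranked among the weakest shared regions. Its percentile there was 8.33, 1.78 and 1.11 in the Nur77 line with LPS, against 17.6, 13.3 and 11 untreated, and 7.94, 11 and 2.58 in the GFP line with LPS, against 4.04, 20.2 and 6.25 untreated. The groups were apart in the Nur77 line only and overlapped in the GFP line. Averaged over the lines its score was -0.50 ± 0.19 with LPS (limma, adjusted p = 0.0767), and -0.84 ± 0.27 in the Nur77 line (adjusted p = 0.0648), which did not pass. The difference of the response between lines was -0.68 ± 0.38 (adjusted p = 0.757).

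The region at the Casp4 start (chr9:5308385-5309583) was called in 11 libraries, the exception being untreated Nur77 replicate 2. The window around the start, at chr9:5308599-5308898 on the plus strand (RefSeq, GRCm38.p6), is shown because it held the most motif matches of the 5 member genes with a RefSeq promoter, with capitals on NF-kB matches, of which the first run holds overlapping ones.
Casp4 start: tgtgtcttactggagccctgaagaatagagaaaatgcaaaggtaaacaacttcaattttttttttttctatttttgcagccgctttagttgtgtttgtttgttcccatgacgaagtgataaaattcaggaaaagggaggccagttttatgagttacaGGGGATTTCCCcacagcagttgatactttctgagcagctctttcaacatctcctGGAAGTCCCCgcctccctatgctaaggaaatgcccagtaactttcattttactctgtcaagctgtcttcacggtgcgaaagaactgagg
These lay at bases -93 to -83 and -39 to -30 from the start. Il18 and Casp1 had no match to any of the 6 motifs in this window, and Pycard had 1, to C/EBP. The Casp4 start region stood at list percentiles of 59.5, 46.3 and 44.2 in the Nur77 line with LPS and 50.8 and 51.9 untreated, against 52.3, 64.9 and 69.1 with LPS and 61.4, 62.9 and 67.1 untreated in the GFP line. The lines overlapped only through GFP LPS replicate 1 and Nur77 LPS replicate 1. Ranked over regions in 10 or more libraries, it was -0.27 ± 0.10 in the Nur77 line (limma, adjusted p = 0.0859), with 4.82% of regions higher and 9.33% lower. Untreated Nur77 replicate 2, without a call, did not enter this difference.

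Inside Casp4, a small region (chr9:5311491-5312017) was called in 0 of 3 libraries of the Nur77 line with LPS and in 3 of 3 of the GFP line with LPS, at list percentiles of 22.3, 31.3 and 37.5. Of the untreated libraries it was called in 0 of 3 of the Nur77 line and 1 of 3 of the GFP line. It was the 1 region of 69 lost in the Nur77 line with LPS, where 2.18% of all regions were lost and 0.304% gained, and 0 of 69 were gained. Casp4 had 656, 629 and 225 bases under peaks in the Nur77 line with LPS, against 795, 1040 and 1196 in the GFP line with LPS. These groups did not overlap as bases or per megabase covered by all peaks of the library. The share of genes that split this way between the lines was not counted, so no line difference is read from these values. In untreated cells, 2 of 69 were lost in the Nur77 line (3.4% of all regions), the one 48.6 kb from Pycard and one 21.1 kb from Gsdmd within Mroh6 (chr15:75888465-75889849), and 0 were gained (0.308%). The Mroh6 region was called in 0 of 3 untreated Nur77 and 3 of 3 untreated GFP libraries, at list percentiles of 6.34, 2.26 and 13.9, and in 1 of 3 LPS libraries of each line. Fisher's test between lines called 0 of 14 tested regions, and 0 at an unadjusted p under 0.05 (0.651% of all more often and 7.32% less often called in the Nur77 line). Lists of the Nur77 line were shorter on average, though their lengths overlapped those of the GFP line. With all lists trimmed to the same length, 0 of the regions were lost in the Nur77 line with LPS and 1 untreated, so the call within Casp4 did not hold there.

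Gsdmd encodes the pore-forming protein gasdermin D. Of its 18 regions, 12 were called in all libraries, and 4 passed a test, none of them at the gene itself. The region at the gene's lower end (chr15:75861787-75863017) stood at percentiles among the shared regions of 21.0 ± 6.95 with LPS and 14.3 ± 5.5 untreated in the Nur77 line, against 13.1 ± 3.8 with LPS and 11.6 ± 3.29 untreated in the GFP line (SD, n = 3 each). It differed by 0.17 ± 0.12 with LPS (limma, adjusted p = 0.342).

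The region 3.9 kb from Gsdmd (chr15:75856552-75858262), to which Gsdmd is the nearest gene, fell with LPS. It stood at 77.0, 79.8 and 75.5 in the Nur77 line with LPS, against 92.4, 95.8 and 91.1 untreated. In the GFP line it stood at 76.9, 57.9 and 70.4 with LPS, against 94.7, 90.9 and 90.2 untreated. LPS libraries were below untreated ones without overlap in both lines, a split whose share over all shared regions was not counted. The score was -0.84 ± 0.11 with LPS (limma, adjusted p = 0.000154), -0.75 ± 0.16 in the Nur77 line (adjusted p = 0.00841) and -0.93 ± 0.16 in the GFP line (adjusted p = 0.00182).

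A neighbouring region 10.3 kb away (chr15:75850380-75851831) moved the other way. It stood at 78.1, 81.1 and 81.5 in the Nur77 line with LPS, against 62.2, 77.4 and 66.2 untreated, and at 65.8, 76.3 and 77.7 in the GFP line with LPS, against 53.5, 32.8 and 46.5 untreated. It rose with LPS by 0.57 ± 0.12 (limma, adjusted p = 0.00295), with 0.36 ± 0.16 in the Nur77 line, which did not pass (adjusted p = 0.186), and 0.78 ± 0.16 in the GFP line (adjusted p = 0.00645). It was also higher in the Nur77 line by 0.43 ± 0.12 (adjusted p = 0.0224), and in untreated cells by 0.64 ± 0.16 (adjusted p = 0.0339). The averaged line difference was lost without GFP LPS replicate 1 (adjusted p = 0.0527) or untreated GFP replicate 2 (0.0536). The untreated one was lost without untreated Nur77 replicate 2 (0.122) or 3 (0.0637), or untreated GFP replicate 2 (0.131) or 3 (0.0774). The 3 untreated GFP libraries lay below all 9 others at this region.

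Of the more distant regions, one 18.7 kb away in Mroh6 (chr15:75886102-75888255) stood at 34.8 ± 1.15 with LPS and 53.1 ± 1.46 untreated in the Nur77 line, and at 39.4 ± 8.79 with LPS and 54.9 ± 1.81 untreated in the GFP line (SD, n = 3 each). It fell by 0.43 ± 0.09 with LPS (limma, adjusted p = 0.0026). Within the lines it passed in the Nur77 line (adjusted p = 0.0254, 0.131 in the ranking over 10 or more libraries, and lost without any of the 6 Nur77 libraries, with up to 0.0784) and in the GFP line (0.0415, up to 0.146, and lost without any library except untreated Nur77 replicate 2 and GFP LPS replicate 2). One 29.1 kb away in Zc3h3 (chr15:75831631-75833051) stood at 16.2 ± 11.8 with LPS and 38.8 ± 5.44 untreated in the Nur77 line, and at 10.6 ± 3.16 with LPS and 24.0 ± 9.19 untreated in the GFP line. It fell by 0.69 ± 0.19 with LPS (adjusted p = 0.0183). The strongest region of the locus, 41.1 kb away over Eef1d and Tigd5 (chr15:75908486-75911569), stood at a list percentile of 94.3 ± 1.81 (SD, n = 12) and differed by -0.05 ± 0.09 with LPS (adjusted p = 0.717).

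With the Nlrp3 promoter, these made 2 regions higher and 3 lower with LPS of the 29. By line they were 1 higher and 2 lower in the Nur77 line (7.58% and 4.92% of all shared regions) and 2 higher and 2 lower in the GFP line (9.57% and 6.99%). Of 29 regions, 11 had an unadjusted p under 0.05 for LPS, against 37.5% of all. The median difference was -0.04 among the 29 and -0.04 over all 26378.

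**Figure D5:**
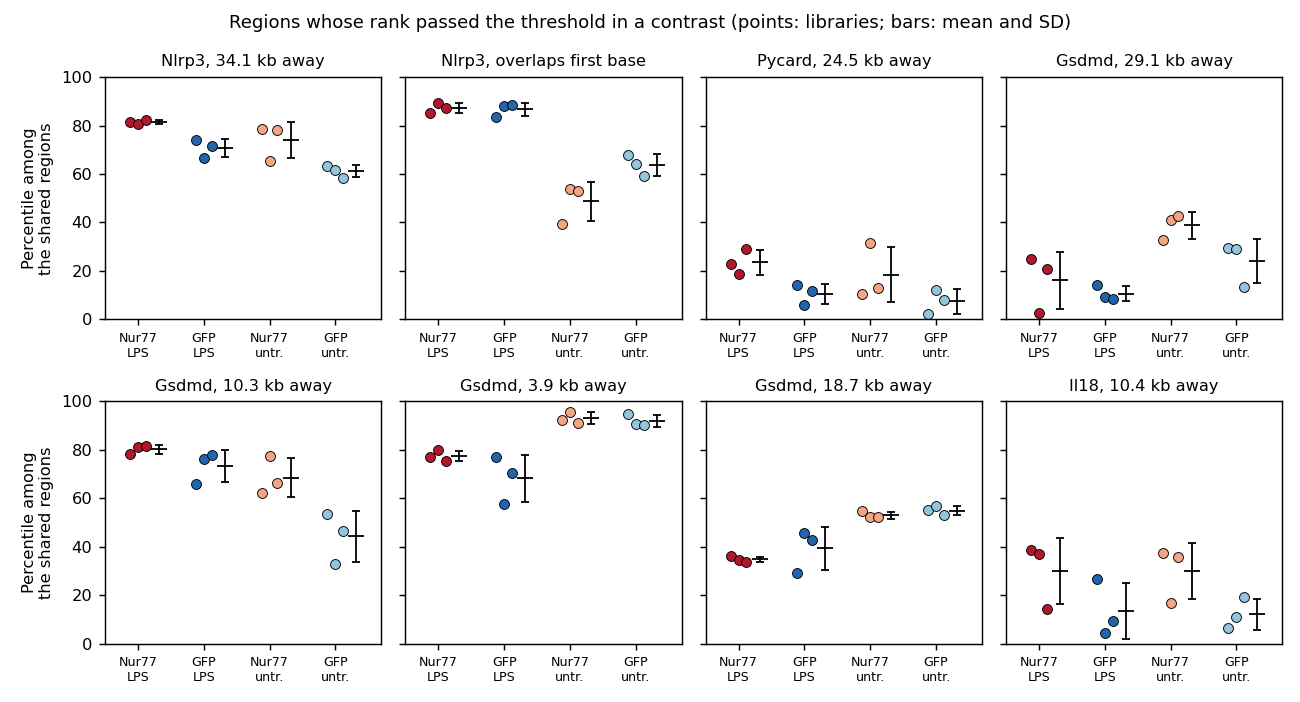
Percentile among the 26378 shared regions (vertical, 0 to 100) in each library (points) of the 8 regions that passed in a contrast, with group mean and SD (n = 3 each). The Nlrp3 promoter lies at 83.6 to 89.2 with LPS and 39.5 to 67.9 untreated, while the Gsdmd region 3.9 kb away lies at 57.9 to 79.8 with LPS and 90.2 to 95.8 untreated.

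At Il18, the cytokine gene, no region in the span passed a test. The region at its start (chr9:50551804-50555540), which also overlaps Bco2, was at percentiles among the shared regions of 57.4 ± 5.13 with LPS and 61.2 ± 6.17 untreated in the Nur77 line, against 57.3 ± 11.5 with LPS and 58.6 ± 7.46 untreated in the GFP line (SD, n = 3 each). The score differed by -0.07 ± 0.11 with LPS (limma, adjusted p = 0.721) and by 0.03 ± 0.11 between lines (adjusted p = 0.879). A region in the gene body (chr9:50569972-50570826) stood at 37.7 ± 7.55 with LPS and 27.7 ± 8.37 untreated (SD, n = 6 each), a difference of 0.30 ± 0.13 that did not pass (adjusted p = 0.122). The third region in the span was called in 2 libraries. The strongest region of the locus, 25.3 kb away in Pts (chr9:50527804-50529445), had a list percentile of 91.9 ± 3.87 (SD, n = 12).

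One region 10.4 kb past Il18 and nearest to Sdhd (chr9:50592203-50594184) was higher in the Nur77 line, at 38.8, 37.2 and 14.2 with LPS and 37.4, 16.6 and 35.9 untreated, against 26.6, 4.62 and 9.18 with LPS and 6.32, 10.9 and 19.1 untreated in the GFP line. The lines overlapped. The difference was 0.66 ± 0.21 (limma, adjusted p = 0.048). The call was lost in the ranking over 10 or more libraries (adjusted p = 0.101) and without any one of Nur77 LPS replicates 1 and 2, untreated Nur77 replicates 1 and 3, GFP LPS replicates 2 and 3, or untreated GFP replicates 1 and 2 (adjusted p up to 0.111).

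A list of 32 other inflammasome genes had 270 regions within 50 kb, of which 108 were called in all libraries. These are not all separate from the regions of the 6 genes, since Casp12 lies near Casp4. With LPS, 14 of the 108 ranked higher (13.0%, against 13.4% of all shared regions) and 17 lower (15.7%, against 13%). Of the 270, 8 were gained in the Nur77 line (2.96%, against 1.94% of all regions) and 6 in the GFP line (2.22%, against 1.96%). The guanylate-binding proteins, interferon-induced GTPases, held the largest rise of the list. A region in Gbp2 (chr3:142619218-142621684) rose by 2.02 ± 0.13 (limma, adjusted p = 7.38e-07) and one in Gbp3 (chr3:142559663-142561906) by 1.05 ± 0.12 (adjusted p = 4.57e-05). One 42.3 kb from Il1r1 (chr1:40358491-40360165) rose by 1.18 ± 0.12 (limma, adjusted p = 1.77e-05). In Gsdme, the gene of another gasdermin, a region (chr6:50260871-50262849) fell by 0.96 ± 0.12 (limma, adjusted p = 0.00012). At Mefv, the pyrin sensor gene, a region 4.7 kb away rose by 0.67 ± 0.09 (adjusted p = 0.000124). At Nek7, an NLRP3-binding kinase, a region in the gene fell by 0.77 ± 0.13 (adjusted p = 0.000679) and another rose by 0.68 ± 0.10 (adjusted p = 0.000455). At Aim2, the DNA sensor, a region in the gene fell by 0.82 ± 0.14 (adjusted p = 0.000862).

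Between the lines, 6 of the 108 were higher and 6 lower in the Nur77 line (5.56% each, against 6.62% and 9.45% of all shared regions). Of the 270, 5 were lost in the Nur77 line with LPS (1.85%, against 2.18% of all regions) and 7 untreated (2.59%, against 3.4%), while 1 and 0 were gained (0.304% and 0.308% of all). The one lost with LPS 33.4 kb from Casp12 is the region inside Casp4 described above. The Gsdme region that fell with LPS was 0.99 ± 0.12 higher in the Nur77 line (limma, adjusted p = 0.000252). A region 0.9 kb from Il18bp, the inhibitor of interleukin 18, fell by 1.33 ± 0.18 in the Nur77 line (adjusted p = 0.00046). A pair of regions in Il1r1, the interleukin 1 receptor, fell by 0.91 ± 0.19 (adjusted p = 0.00621) and 0.71 ± 0.08 (adjusted p = 0.000102).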

How the data were processed

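ATAC-seq peak lists of 12 RAW264.7 libraries, 4 groups of 3, were analysed. The submitters' processing notes name build mm10, cutadapt 2.6 and DiffBind 3.0.15. For the aligner and the caller of the peaks, the software was not given in the sources used here. Each library has a peak list of its own. The names of the deposited peaks carry the tags of a read filter at mapping quality 20 without mitochondrial reads or duplicates, and of a q value of 0.001. The deposited score is the authors' whole number per peak, the deposited fold is their summit enrichment as a ratio, and the deposited −log10 p and −log10 q values belong to the summit. These are the authors' values and rank peaks only inside the list they come from.

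Merging gave 100374 regions, 76042 of them in at least 2 lists. Gene spans, transcription starts and promoters came from RefSeq (GRCm38.p6, 21887 protein-coding genes); 5 of the 6 genes had a promoter sequence. Calls were compared by two-sided Fisher's exact tests over regions called in 4 to 8 libraries. Ranks by −log10 q among the 26378 regions called in all libraries, as normal scores, were fitted with limma 3.58.1 (R 4.3.3) with 4 groups and no replicate block. P-values were Benjamini-Hochberg adjusted over all regions, with a threshold of 0.05. The limma step was tested on simulated data. Summits were taken within 250 bp of a start. Python 3.11.15 and scipy 1.17.1 were used.

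The members and gene lists were chosen with earlier results of these data known. Regions were named if within 1000 bp of a gene end or in the span, strongest of a locus, gained, lost, or past a test; the strongest region of the Pycard locus is not reported here. Alternatives were trimmed lists, a −log10 q of at least 5, 50% overlap, a 10 kb distance, regions in 1 list, other rank sets, a replicate block and leaving out each library.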

Additional observations from a re-analysis of the deposited data

Results flagged for a closer look

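At the region over Pycard, percentiles among the shared regions put all 3 LPS libraries above all 3 untreated ones in the Nur77 line and below them in the GFP line. Neither response passed (limma, adjusted p = 0.399 in the Nur77 line and 0.0579 in the GFP line), and percentiles within each library's own list overlapped in both lines. The response was 0.73 ± 0.23 (SE) higher in the Nur77 line than in the GFP line in normal scores (limma, unadjusted p = 0.00734, adjusted p = 0.526 over 26378 regions), so the difference did not pass.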

How the results depend on the processing

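Of 17 region-level rank calls, 10 held under every alternative in which their region was still ranked, and 0 reversed. The Nlrp3 promoter was ranked in 18 alternatives, the region 10.3 kb from Gsdmd in 17 and the one 29.1 kb from Gsdmd in 16. The calls that held include the LPS calls averaged over lines, at the Nlrp3 promoter (0.86 to 1.2) and at 4 Gsdmd regions. Trimmed lists left 38 of 69 regions, 0 lost with LPS in the GFP line, 1 gained in the Nur77 line, 1 and 0 lost between lines untreated and with LPS, 1 Fisher call with LPS, 2 higher ranks in the Nur77 line and an Nlrp3 coverage ratio of 2.69. A −log10 q of at least 5 left 0 lost between lines untreated. Requiring 50% cover gave 1 gained with LPS in the GFP line, 1 gained and 0 lost between lines untreated, and 1, 1 and 0 higher ranks for the lines, LPS in the GFP line and the lines untreated. Within 10 kb lay 27 regions, with 0 lost with LPS in the GFP line or between lines untreated. Ranks there were 1 higher and 1 lower with LPS, 1 and 1 in the GFP line, 1 lower in the Nur77 line, and 0 higher for the lines, averaged or untreated. Regions in 10 or more libraries gave 4 higher with LPS, 4 higher and 1 lower in the GFP line, and 2 higher and 1 lower in the Nur77 line. A replicate block gave 2 higher for the lines, 1 lower with LPS in the GFP line and 0 higher untreated between lines. Of 18 correlations between the deviations of same-numbered libraries, 2 were over 0.1 (-0.157 to 0.144). These correlations cannot show whether a shared number marks a shared culture or batch.

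Leaving out 1 library gave 60 to 69 regions. Gained and lost with LPS were 2 to 4 and 1 to 5 in the GFP line, and 2 and 0 to 4 in the Nur77 line. Between lines they were 0 to 1 and 2 to 3 untreated, and 0 to 1 and 1 to 3 with LPS. Fisher calls were 0. Ranks higher and lower were 2 to 4 and 3 to 4 with LPS, 2 to 4 and 0 to 1 between lines, 2 to 4 and 1 to 3 in the GFP line, 1 to 2 and 1 to 3 in the Nur77 line, 0 to 2 and 0 to 1 between lines untreated, and 0 to 1 and 0 with LPS. Counts of regions moved by over 1.5 times without untreated Nur77 replicate 2, the shortest list (4 higher with LPS averaged and in the GFP line, 2 in the Nur77 line and between lines untreated, 4 lost with LPS in the Nur77 line). It also gave 1 gained between lines untreated. Without GFP LPS replicate 3 there were 5 lost with LPS and 1 gained between lines with LPS. Without GFP LPS replicate 1 there were 4 gained with LPS, 3 lost and 1 higher between lines with LPS, and 1 lower between lines averaged and untreated. Without GFP LPS replicate 2, 2 were lost between lines with LPS, and without untreated GFP replicate 1 or 2, 2 were lost with LPS. The 1 higher between lines untreated became 0 without untreated Nur77 replicate 3 or untreated GFP replicate 2 or 3. The 4 higher ranks between lines became 2 without Nur77 LPS replicate 1, GFP LPS replicate 2, or untreated GFP replicate 1 or 2. The 2 lower ranks with LPS became 1 without any of 7 libraries in the GFP line and any of 5 in the Nur77 line. The Nlrp3 ratios were 3.22 to 3.52 (coverage) and 3.05 to 3.69 (summits, LPS over untreated). How much of these changes comes with the looser rule or the changed ranked set was not tested. Without read totals, a region not called is not shown to be closed.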
